A study of Mus musculus with 12 samples.

Results

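LM8 and Dunn are mouse osteosarcoma cell lines, LM8 having been derived from Dunn by repeated selection in mice for spread to the lung, and the comparison described here set the young cultures of the highly metastatic LM8 line against the young cultures of its weakly metastatic parent. It used 6 of the 12 arrays of the series, 3 of LM8 at passage 24 and 3 of Dunn at passage 25, chosen by their labels. The other 6 arrays held the same lines after long culture, LM8 at passage 91 and Dunn at passage 86, and entered only where the text names late passage. All cultures were grown in the same medium with fetal calf serum and no group received a drug or a genetic change. Each line is a single tumour-derived population, so 3 cultures of each describe those lines, and the labels call the cultures of a group independent. RNA was labelled with 1 dye and hybridised to Agilent whole-genome mouse arrays.

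Osteosarcoma is a malignant tumour whose cells make bone matrix, and its lethal spread goes mainly to the lung. To form a metastasis a tumour cell has to leave its own matrix, enter and leave blood vessels, escape immune cells that read peptides on MHC class I molecules, and grow in foreign tissue. Proteins of the basement membrane, integrins, matrix proteases and chemokines take part in the first steps, and the Wnt and hedgehog signalling pathways, which steer osteoblast formation in normal bone, have been studied in this tumour.

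A level below is log2 of the processed signal of a probe minus the 75th percentile of its array, so that 0 is the signal at that percentile, and a difference is the LM8 mean minus the Dunn mean on that log2 scale. A gene was represented by its probe of the highest mean level and was called higher or lower at a Benjamini-Hochberg adjusted p below 0.05 in limma together with a difference over 2-fold. Of 39429 probes, 20244 were well above background on all 3 arrays of at least 1 line, and these stood for 11957 named genes with a test. The Dunn arrays were dimmer and less even than the LM8 arrays. The 75th percentile of the signal was between 253.1 and 521.6 intensity units on the Dunn arrays and between 788.2 and 1148 on the LM8 arrays, and 39.1 to 50.2% against 53.7 to 56.5% of probes were well above background. Dunn replicate 1 stood apart with a median spot background of 87 intensity units where the other 5 arrays had 22.5 to 29.5. Replicates correlated at r = 0.979 to 0.984 within LM8 and 0.944 to 0.962 within Dunn over 13208 probes measured above background on all 6 arrays. Each group also held the same position on all 3 slides, so position and group cannot be told apart.

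The label of bone tumour cells was set against marker genes. Of 10 osteoblast markers, 8 were well above background on all LM8 arrays and 6 on all Dunn arrays, and their summed levels lay between 5.84 and 5.93 in LM8 and between 6.05 and 6.39 in Dunn over the 6 markers measured on every array. An array left out as an outlier spot counts here as not above background. Col1a1, the main collagen chain of bone, differed by 0.019 ± 0.22 (SE, adjusted p = 0.955), Runx2, the master regulator of the osteoblast lineage, by 0.11 ± 0.32 (SE, adjusted p = 0.814), and Sp7, which acts downstream of it, by -0.44 ± 0.30 (SE, adjusted p = 0.296). Of the 5 epithelial markers Epcam, Cdh1, Krt8, Krt18 and Krt19, none was above background on all arrays of either line. In a longer list of 10 epithelial genes 1 was, with a difference of 0.28 that was not called. Of 5 endothelial markers Cdh5 and Tek were above background on no array, while Kdr and Vwf were on all 6 arrays and were called lower in LM8, with differences of -1.01 and -1.28. The summed endothelial levels were 2.21 to 2.25 in LM8 and 3.13 to 3.86 in Dunn, and their part in the results was not tested. The muscle factors Myod1 and Myog were above background on no array. Of 5 chondrocyte markers 3 were above background on all LM8 arrays and 0 on all Dunn arrays. Col2a1 had means of 5.91 in LM8 and 6.80 in Dunn, above those of Col1a1 at 5.14 and 5.12, and was not called. Col9a1 was called higher at 2.38, with no Dunn array above background. Sox9 differed by -0.076 and was not called, and Acan and Matn1 were not tested.

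Of the 11957 genes, 660 (5.52%) were called higher in LM8 and 1615 (13.5%) lower. The levels of the lines did not overlap for 595 and 1565 of them, which are all the called genes with a value on each of the 6 arrays. The other 65 and 50 lack a value as an outlier spot and were not counted. Overlap was not counted over all genes. Since every called gene with 6 values lacked overlap, its absence goes with the call and adds no support to it. The median difference over all genes was -0.36, and it is the level against which the medians of gene groups are read below. Counts of called members of a group are read against the shares of 5.52% higher and 13.5% lower over all genes. The split between directions depended on the scaling. With each array scaled to the 75th percentile of only those probes that all 6 arrays detected, 971 genes were higher and 562 lower, so that 63.3% of calls were higher in place of 29.0%, while normexp background correction left 17% higher with 450 and 2191 genes. Under the scaling to shared probes most of the calls lost were small differences. Of 1050 genes lower by a log2 difference of 1 to 1.5, 42 kept the call there, and of 295 genes lower by over 4-fold 293 did. Under normexp large differences were lost as well, and of 365 genes higher by over 4-fold 174 kept the call. Counts fell to 387 higher and 872 lower without LM8 replicate 1, to 275 and 539 without LM8 replicate 2 and to 292 and 539 without LM8 replicate 3, and rose to 1051 and 2110 without Dunn replicate 2. A fit on fewer arrays also has less power, so a call lost there need not rest on the array left out. Without Dunn replicate 1, in both the filter and the fit, 650 genes were higher and 1519 lower, of which 516 and 1269 were among the calls above.

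**Figure D1:**
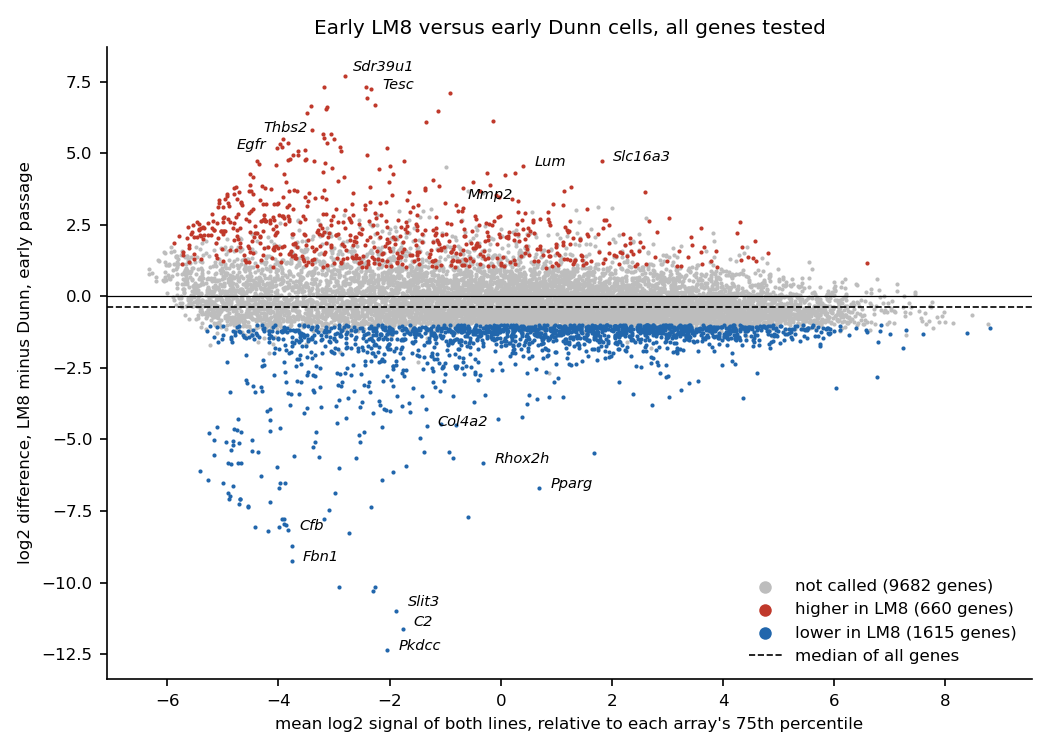
Each point is 1 of the 11957 genes, with its mean level over both lines on the horizontal axis (log2 relative to the 75th percentile of the array) and the difference LM8 minus Dunn on the vertical axis (log2). Red points were called higher (660) and blue points lower (1615). The lower calls reach to -12.37 for Pkdcc and lie at all levels, and most of the higher calls lie at low mean levels.

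The calls differed by where they were measured. Among 8488 genes well above background on all 6 arrays, 207 (2.44%) were higher and 1391 (16.4%) lower. Of 530 genes detected on all LM8 arrays and on no Dunn array, 194 were called higher, and all 57 genes detected on all Dunn arrays and on no LM8 array were called lower. Having been selected as dim on 1 side, these genes had to differ in that direction, and the dimmer Dunn arrays have the larger set. For them, where called, the fold is given as a bound, the mean of the bright line against the lowest signal well above background on each array of the dim line. Genes detected on only some arrays of a line have a difference that rests in part on signal below detection, or lack an array as an outlier spot. The count of arrays takes such a left-out array as not above background. Acta2, with a Dunn mean of 7.63, counts on 2 Dunn arrays for that reason. Among those given below, Twist1, Timp4, Phex, Vangl1 and Oas2 were above background on 1 Dunn array, and Wnt11 and Wnt8b on 2.

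The largest bounds were of genes silent on the arrays of LM8. Pkdcc, a secreted kinase that phosphorylates proteins of the extracellular matrix, had levels of -8.0, -8.11 and -8.55 on the LM8 arrays and 4.01, 3.98 and 4.45 on the Dunn arrays. It was at least 1430-fold lower in LM8 (adjusted p = 3.42e-06, limma), and no LM8 culture came near any Dunn culture. C2, a serine protease of the classical complement pathway, was at -7.90, -7.52 and -7.29 on the LM8 arrays and 3.85, 4.06 and 4.23 on the Dunn arrays, at least 1332-fold lower. Hc, which encodes complement component C5, stood at -6.80, -6.61 and -8.63 on the LM8 arrays and 2.65, 2.59 and 3.21 on the Dunn arrays, at least 568-fold lower. Both complement genes were thus well detected in every Dunn culture and in no LM8 culture. Slit3, a secreted guidance cue read by Robo receptors, was at least 987-fold lower with levels of -7.71, -6.25 and -8.13 on the LM8 arrays and 3.85, 3.26 and 3.73 on the Dunn arrays. Sgce, an imprinted gene for a protein of the sarcoglycan complex, was at least 586-fold lower, at -7.32, -6.89 and -8.11 on the LM8 arrays and 2.74, 2.64 and 3.21 on the Dunn arrays. Fbn1, the fibrillin of the microfibrils that store TGF-beta in connective tissue, was at least 147-fold lower, at -8.24, -8.28 and -8.63 on the LM8 arrays and 0.53, 0.77 and 1.31 on the Dunn arrays. Limch1, a regulator of actomyosin, and Acot1, an acyl-CoA thioesterase, completed the largest bounds at 364-fold and 210-fold. All 8 of these genes kept their call in each fit without 1 array.

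Genes detected on all 6 arrays showed smaller differences than these bounds, the 10 largest lower ones between 30.9-fold and 104-fold. Pparg, the nuclear receptor that drives adipocyte formation, was at -2.54, -2.76 and -2.68 on the LM8 arrays and 3.93, 3.73 and 4.46 on the Dunn arrays. The difference of -6.70 ± 0.26 (SE, adjusted p = 2.15e-05) is 104-fold, against SDs of 0.11 within LM8 and 0.37 within Dunn. Pdgfb, a growth factor for mesenchymal cells, was at -5.30, -5.33 and -5.40 on the LM8 arrays and 0.70, 1.44 and 1.09 on the Dunn arrays, a difference of -6.42 ± 0.25 (SE, adjusted p = 2.45e-05). Bmyc, a short relative of Myc, differed by -6.14 ± 0.24 (SE, adjusted p = 2.45e-05) and Akr1c13, an aldo-keto reductase, by -5.95 ± 0.40 (SE, adjusted p = 0.000195). The remaining genes of the 10 largest differences in this direction have unrelated known roles. Slc40a1, the only known exporter of iron from cells, was lower in LM8 by 43.1-fold, with levels of -3.76, -3.84 and -4.70 on the LM8 arrays and 1.24, 1.46 and 1.29 on the Dunn arrays. Pomgnt2, an enzyme that extends sugars on dystroglycan, differed by -5.65, Agpat3, an acyltransferase of phospholipid synthesis, by -5.48, and Myh14, a nonmuscle myosin heavy chain, by -5.46. Phactr2, which binds actin and protein phosphatase 1, differed by -4.95 and Rhox2h, a homeobox gene of the reproductive X-linked cluster, by -5.83.

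In the other direction, Slc16a3 led the genes detected on all 6 arrays. It encodes MCT4, the transporter that exports lactate from glycolytic cells, and its levels were 4.36, 4.24 and 3.97 on the LM8 arrays and -0.42, -0.91 and -0.33 on the Dunn arrays, a difference of 4.75 ± 0.25 (SE, adjusted p = 8.23e-05) or 26.8-fold. Lum, the small proteoglycan lumican that binds collagen fibrils, was at 2.64, 2.45 and 2.94 on the LM8 arrays and -2.31, -1.76 and -1.54 on the Dunn arrays, a difference of 4.55 ± 0.28 (SE, adjusted p = 0.000142). Fstl3, a secreted protein that binds activins, differed by 4.0 ± 0.35 (SE, adjusted p = 0.000605), Tm4sf1, a membrane protein of the tetraspanin-like L6 family, by 3.70 ± 0.28 (SE, adjusted p = 0.000328) and Galnt3, which starts O-glycan chains, by 3.46 ± 0.45 (SE, adjusted p = 0.00365). The lines did not overlap for any of these genes. Specc1, Jsrp1, Atp5a1, Hspb2 and Clstn3 completed the 10 largest, with differences of 4.26, 4.05, 3.82, 3.80 and 3.39. Among genes detected in LM8 and on no Dunn array, Tesc, a calcium-binding protein that promotes maturation of a sodium-proton exchanger, was at 1.37, 1.58 and 0.93 on the LM8 arrays and -5.29, -5.92 and -6.66 on the Dunn arrays, at least 57.6-fold higher. Usp11, a deubiquitinating enzyme, was at least 55.8-fold higher, and Papss2, which makes the sulfate donor for cartilage and bone proteoglycans, at least 33.1-fold higher, at 0.63, 0.57 and 0.43 on the LM8 arrays and -3.22, -5.92 and -4.78 on the Dunn arrays. Shfl, Arhgap9, Sdr39u1, Snord123 and Fbxo27 had bounds of 50.1, 48.9, 48.6, 33 and 26.8-fold. The lowest detected signal lies higher relative to the 75th percentile on the dim Dunn arrays, which lowers the bounds in this direction.

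**Figure D2:**
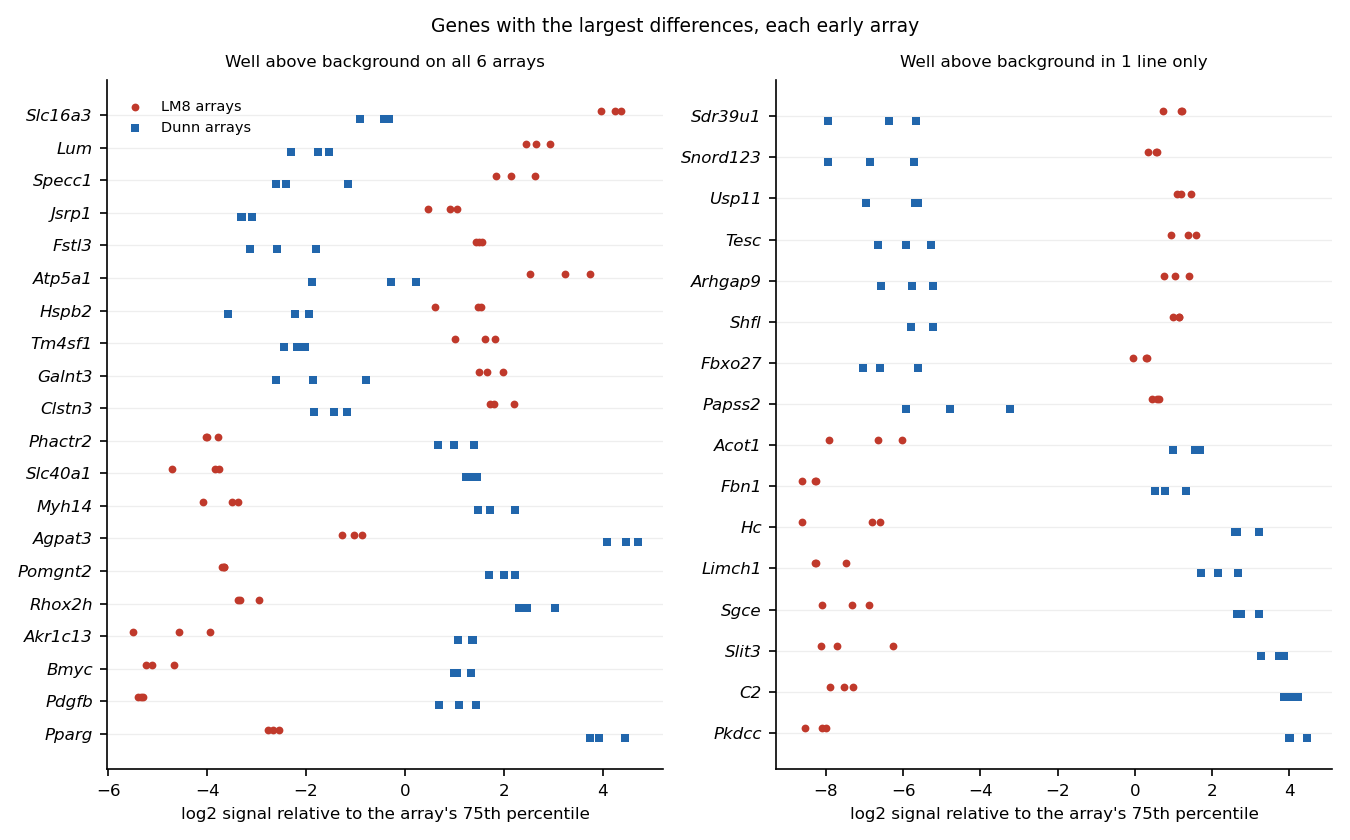
Levels on each early array (log2 relative to the 75th percentile of the array) of the genes with the largest differences, LM8 as red circles and Dunn as blue squares. The left panel holds genes well above background on all 6 arrays and the right panel genes above it in 1 line only, where points of the other line are below detection. The lines are apart for every gene shown, as for Pparg, with LM8 between -2.76 and -2.54 and Dunn between 3.73 and 4.46.

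Genes of the basement membrane, the sheet of laminin and type IV collagen that lies under epithelia and around vessels, included more lower calls than all genes together. Of 23 listed genes 16 were tested, 7 were lower (43.8% against 13.5% over all genes) and 1 higher, with a median difference of -0.72 against -0.36 over all genes. The chains Col4a1 and Col4a2, which are transcribed away from a shared promoter on chromosome 8 and join in a trimer, were both lower. Col4a2 was at -3.60, -3.75 and -3.44 on the LM8 arrays and 0.91, 0.60 and 1.28 on the Dunn arrays and Col4a1 at -2.51, -2.47 and -3.22 on the LM8 arrays and 0.45, 0.42 and 0.82 on the Dunn arrays, differences of -4.52 ± 0.25 (SE, adjusted p = 9.87e-05) and -3.30 ± 0.28 (SE, adjusted p = 0.000564). Nid2, which links laminin to type IV collagen, differed by -3.71 ± 0.40 (SE, adjusted p = 0.00171). The exception was Col18a1, the source of the fragment endostatin, at 1.68, 2.10 and 1.61 on the LM8 arrays and -1.38, -0.87 and -1.22 on the Dunn arrays, a difference of 2.95 ± 0.25 (SE, adjusted p = 0.000559). The number lower lay between 6 and 10 under the other settings with scaled values, and between 6 and 7 without any 1 array. The promoter windows of both collagen genes are printed because they overlap, the bases that each shares with the other, 78 in number, being in capitals (RefSeq, GRCm38.p6, Col4a1 at chr8:11312777-11313076, minus strand and Col4a2 at chr8:11312555-11312854, plus strand, from 250 bases before the start of transcription to 50 after).
Col4a1: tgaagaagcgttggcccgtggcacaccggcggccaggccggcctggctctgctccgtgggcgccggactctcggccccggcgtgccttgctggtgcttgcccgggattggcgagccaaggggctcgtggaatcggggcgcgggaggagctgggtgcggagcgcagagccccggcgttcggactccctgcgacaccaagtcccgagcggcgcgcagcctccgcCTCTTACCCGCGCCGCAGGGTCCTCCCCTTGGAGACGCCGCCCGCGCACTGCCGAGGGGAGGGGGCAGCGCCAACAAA
Col4a2: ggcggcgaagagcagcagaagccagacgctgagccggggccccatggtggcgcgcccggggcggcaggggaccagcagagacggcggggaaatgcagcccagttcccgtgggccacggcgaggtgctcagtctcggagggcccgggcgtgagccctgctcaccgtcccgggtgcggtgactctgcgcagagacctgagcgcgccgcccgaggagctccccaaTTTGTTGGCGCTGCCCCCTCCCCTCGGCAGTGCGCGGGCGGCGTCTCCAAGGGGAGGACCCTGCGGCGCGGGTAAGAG

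Receptors that hold cells to this matrix followed in the same direction with smaller differences. Of 14 integrin genes tested 6 were lower (42.9% against 13.5% over all genes) and 0 higher, with a median of -0.91. Of 18 core proteins of focal adhesions 6 were lower (33.3%) and 0 higher, with a median of -0.57. Itga3, the alpha chain of a laminin receptor, was at -1.90, -1.60 and -2.01 on the LM8 arrays and 0.52, 0.20 and 0.69 on the Dunn arrays, a difference of -2.30 ± 0.24 (SE, adjusted p = 0.00143). The collagen receptor chain Itga11 differed by -1.32 ± 0.25 (SE, adjusted p = 0.0146), and the talins Tln2 and Tln1, which activate integrins from inside the cell, by -1.49 ± 0.22 (SE, adjusted p = 0.00573) and -1.36 ± 0.30 (SE, adjusted p = 0.0221). In fits on 5 arrays the call was lost for Itga11 (without LM8 replicates 2 or 3) and Tln1 (without LM8 replicates 1, 2 or 3). Other settings ended the call under the percentile over shared probes for Itga11 and Tln1 and under normexp for Tln1. The calls of these small differences depended on the scaling and were lost in some fits on 5 arrays. Under the scaling to shared probes 1 integrin gene and 1 focal adhesion gene stayed lower, and without 1 array the counts lay between 1 and 8 and between 1 and 6.

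The fibrillar collagens and their enzymes moved in both directions, with 4 higher and 4 lower of 16 tested (25% each, against 5.52% and 13.5% over all genes). Col24a1, a minor fibrillar collagen of developing bone, was at least 4.51-fold higher with levels of -2.88, -2.41 and -1.86 on the LM8 arrays and -5.57, -7.69 and -6.67 on the Dunn arrays. Lox, the enzyme that crosslinks collagen, differed by 1.74 ± 0.29 (SE, adjusted p = 0.00922), and Col6a2, a chain of beaded filaments, by -2.35 ± 0.29 (SE, adjusted p = 0.00295). Among proteoglycans, Lum and Omd, the osteomodulin of mineralised tissue, were higher, Omd at -0.35, 1.21 and -0.009 on the LM8 arrays and -4.64, -3.49 and -4.62 on the Dunn arrays, while Podnl1 and Fmod differed by -2.85 and -1.72, a Dunn array being left out for Fmod as an outlier spot. Thbs2, a thrombospondin that inhibits vessel growth, was detected on no Dunn array and was at least 17.8-fold higher, at 0.042, -0.03 and -1.23 on the LM8 arrays and -4.79, -7.06 and -5.97 on the Dunn arrays. Tgfbi, an adhesion protein induced by TGF-beta, differed by 2.68 ± 0.20 (SE, adjusted p = 0.000331). A call was missed under normexp for Col24a1.

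Matrix proteases and their inhibitors were split as well, 5 higher and 4 lower of 19 (26.3% and 21.1%, against 5.52% and 13.5% over all genes). Mmp2, the gelatinase that cleaves type IV collagen, was at 0.66, 1.0 and 0.74 on the LM8 arrays and -2.48, -2.42 and -2.30 on the Dunn arrays, a difference of 3.20 ± 0.21 (SE, adjusted p = 0.000195). Mmp13, the collagenase of bone and cartilage, was at -3.10, -3.36 and -3.45 on the LM8 arrays and 0.22, 0.92 and 0.74 on the Dunn arrays, a difference of -3.93 ± 0.26 (SE, adjusted p = 0.000195). The lines therefore ordered in opposite ways for these proteases, without overlap. Adamts9, which cleaves the proteoglycans aggrecan and versican, was detected on no LM8 array and was at least 24.2-fold lower, and Timp4, an inhibitor of metalloproteinases, differed by 3.86 ± 0.45 (SE, adjusted p = 0.00225). Of surface adhesion genes, Ncam1 was lower by 5.58-fold, and Cdh2, the N-cadherin of mesenchymal cells, was at least 6.64-fold higher, at -1.59, -2.06 and -1.83 on the LM8 arrays and -4.21, -6.73 and -5.61 on the Dunn arrays. Cd44, a hyaluronan receptor, and Ezr, which ties it to actin and has been studied in osteosarcoma metastasis, differed by -1.24 ± 0.27 (SE, adjusted p = 0.0212) and -1.24 ± 0.21 (SE, adjusted p = 0.00951). Leaving out 1 array ended the call of Cd44 (without LM8 replicates 1, 2 or 3) and Ezr (without LM8 replicate 2). The call was also lost under normexp for Cdh2 and under the percentile over shared probes for Cd44 and Ezr.

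Transcription factors of mesenchymal transition, which repress E-cadherin and loosen epithelia, also split, 3 higher and 2 lower of 9 (33.3% and 22.2%, against 5.52% and 13.5% over all genes). Their median was 2.02 and fell to 0.57 without Dunn replicate 1. Under normexp it was 0.36, with 2 higher and 3 lower. At late passage 3 were higher and 3 lower, with a median of -1.12 against -0.22 over all genes. Only 3 of the 9 were well above background on all 6 early arrays. Snai1 was at -3.30, -4.03 and -4.28 on the LM8 arrays and -0.86, -0.89 and -0.87 on the Dunn arrays, a difference of -3.0 ± 0.29 (SE, adjusted p = 0.00102), and Twist2 differed by -2.96 ± 0.31 (SE, adjusted p = 0.00138). Twist1, its close relative, was at -2.49, -1.16 and -1.52 on the LM8 arrays and -4.55, -3.67 and -4.89 on the Dunn arrays, a difference of 2.65 ± 0.45 (SE, adjusted p = 0.00981) in the opposite direction. Foxc1 differed by 3.55 ± 0.74 (SE, adjusted p = 0.0238) with 1 LM8 array left out as an outlier spot. In fits on 5 arrays the call was lost for Twist1 (without LM8 replicate 3) and Foxc1 (without LM8 replicates 1, 2 or 3 or Dunn replicate 3). Other settings ended the call under normexp for Twist1.

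The machinery that loads peptides on MHC class I molecules was lower in LM8. Of 21 tested genes 10 were lower (47.6% against 13.5% over all genes) and 0 higher, with a median of -1.21 against -0.36 over all genes. Psmb9, a catalytic subunit of the immunoproteasome, was at 1.91, 1.89 and 1.05 on the LM8 arrays and 4.40, 4.25 and 4.57 on the Dunn arrays, a difference of -2.79 ± 0.29 (SE, adjusted p = 0.00152). Tap1, a subunit of the transporter that carries peptides into the endoplasmic reticulum, was at -1.88, -1.79 and -2.43 on the LM8 arrays and 0.40, 0.18 and 0.61 on the Dunn arrays, a difference of -2.43 ± 0.26 (SE, adjusted p = 0.0016), and Psmb8, another immunoproteasome subunit, differed by -2.40 ± 0.29 (SE, adjusted p = 0.00282). Nlrc5, the transactivator of class I genes, was at -0.71, -0.53 and -0.66 on the LM8 arrays and 1.82 and 1.98 on the Dunn arrays, with Dunn replicate 3 left out as an outlier spot, a difference of -2.53 ± 0.24 (SE, adjusted p = 0.00189). For each of these 4 genes every measured LM8 value lay below every measured Dunn value. B2m, the light chain of the complex, and the heavy chains H2-K1 and H2-D1 were not called, with differences of -0.48 ± 0.39 (SE, adjusted p = 0.373), -1.40 ± 0.56 (SE, adjusted p = 0.107) and -1.13 ± 0.39 (SE, adjusted p = 0.0722). With the slide as a replicate block H2-K1 was called lower at -1.40 (limma adjusted p = 0.0325). The heavy-chain genes are near-identical copies, so signal may be shared between their probes. Of the 11 tested members on chromosome 17, where genes as a whole were lower with a median of -0.62, 6 were lower and the median was -1.34, and of the 10 elsewhere 4 were lower and the median was -0.79. The number lower was 6 to 12 under the other settings with scaled values, and 6 to 10 without any 1 array. Tap1 and Psmb9 lie head to head and share 275 of the 300 bases of their promoter windows, so the window of Tap1 is printed for both (RefSeq, GRCm38.p6, chr17:34187306-34187605, plus strand), with the GC box GGGCGG, searched on both strands, in capitals. That motif was picked after the values were seen and is in 64.2% of the promoter windows of tested genes.
Tap1: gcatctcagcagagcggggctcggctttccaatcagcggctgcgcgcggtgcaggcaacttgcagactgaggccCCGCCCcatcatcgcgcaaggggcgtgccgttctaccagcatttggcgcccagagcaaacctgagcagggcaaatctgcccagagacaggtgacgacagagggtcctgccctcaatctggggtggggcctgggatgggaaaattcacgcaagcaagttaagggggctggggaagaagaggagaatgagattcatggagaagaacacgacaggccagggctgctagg

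Interferon is a known inducer of the immunoproteasome. Of 29 tested genes of the interferon response 2 were higher and 1 lower (6.90% and 3.45%, against 5.52% and 13.5% over all genes). Their median was 0.21 against -0.36 over all genes. At late passage 0 were higher and 7 lower, with a median of -0.77 against -0.22 over all genes, and the late class I median was -1.16. A part of interferon in the class I values was not tested. Oas2 and Oasl1, sensors of viral RNA, differed by 2.18 ± 0.63 (SE, adjusted p = 0.0467) and 1.30 ± 0.29 (SE, adjusted p = 0.0237), and Ifih1, another sensor, by -1.31 ± 0.29 (SE, adjusted p = 0.0219). Dropping 1 array ended the call of Oas2 (without LM8 replicates 1, 2 or 3 or Dunn replicates 1 or 3), Oasl1 (without LM8 replicates 1 or 2 or Dunn replicate 3) and Ifih1 (without LM8 replicates 1, 2 or 3). A call was missed under the percentile over shared probes for Oas2 and Ifih1, under quantile normalization for Oas2 and under normexp for Oasl1. Under normexp the difference of Oas2 turned below 0, with no call.

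Chemokines and their receptors, which draw immune cells and guide tumour cells, were lower in 7 of 11 tested genes (63.6% against 13.5% over all genes) and higher in 0, with a median of -1.44. Ccl2, the main attractant of monocytes, was at -7.06, -7.50 and -8.35 on the LM8 arrays and -2.65, -2.47 and -3.43 on the Dunn arrays and was at least 11.2-fold lower. Ackr4, a receptor that removes chemokines without signalling, was at -4.94, -4.65 and -5.30 on the LM8 arrays and -0.34, -0.37 and 0.35 on the Dunn arrays, a difference of -4.85 ± 0.30 (SE, adjusted p = 0.000142). Ccr7, which guides cells to lymph nodes, differed by -3.88 ± 0.53 (SE, adjusted p = 0.00466) and Ccl9 by -4.27 ± 0.84 (SE, adjusted p = 0.0163), although Ccr7 was above background on 2 and Ccl9 on 1 of the LM8 arrays. Leaving out 1 array ended the call of Ccl9 (without LM8 replicate 1 or Dunn replicate 3). Cxcl10, an interferon-induced chemokine above background on no Dunn array, differed by 1.40 ± 0.45 (SE, adjusted p = 0.0631) and was not called, but passed at 1.40 with the slide as a replicate block (limma adjusted p = 0.0367) and differed by -1.01 under normexp. The number lower was 4 to 8 under the other settings with scaled values and 4 to 7 without any 1 array. Of the macrophage and blood markers Csf1r and Itgam were well above background on all 6 arrays, with differences of 0.090 and -0.82 that were not called, and Cd14 on all LM8 arrays. Ptprc, Adgre1 and Tyrobp were not detected on all arrays of either line, and the summed levels of 6 macrophage and blood markers were 2.45 to 2.97 in LM8 and 3.08 to 3.98 in Dunn. Their part in the chemokine values was not tested, and in these bulk cultures fewer cells of a type and less RNA per cell cannot be told apart.

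Complement, the cascade of serum proteases that marks and lyses cells, held 4 lower and 1 higher genes among 12 tested (33.3% and 8.33%, against 13.5% and 5.52% over all genes), a list with C2 and without Hc. Cfb, a protease of the alternative pathway and neighbour of C2 on chromosome 17, was at -8.29, -6.88 and -8.53 on the LM8 arrays and 0.048, 0.085 and 0.64 on the Dunn arrays, at least 96.5-fold lower. C1s1 differed by -1.59 ± 0.26 (SE, adjusted p = 0.00922) and C3, the central protein of the cascade, by -0.50 ± 0.26 (SE, adjusted p = 0.181), which was not called. Other settings ended the call under normexp for C1s1. The window of Hc is printed because, of the 6 windows found for the 8 genes with the largest bounds, it alone holds the letters TATAAA, in capitals, which lie far from the start of transcription and are a match of letters only (RefSeq, GRCm38.p6, chr2:35061363-35061662, minus strand). Searched on both strands, TATAAA is in 7.06% of the windows of tested genes and in 14.2% of all promoter windows, and the window of Hc holds 3 CpG where the median of tested genes is 21.
Hc: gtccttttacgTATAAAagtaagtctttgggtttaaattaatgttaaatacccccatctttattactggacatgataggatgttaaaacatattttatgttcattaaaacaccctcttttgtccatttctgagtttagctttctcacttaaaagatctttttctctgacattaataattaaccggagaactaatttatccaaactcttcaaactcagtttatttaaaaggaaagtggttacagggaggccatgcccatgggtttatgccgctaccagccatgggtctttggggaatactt

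Of 10 tested Wnt ligands 3 were higher and 1 lower (30% and 10%, against 5.52% and 13.5% over all genes), with a median of 0.81. Under normexp 2 were higher and 3 lower with a median of 0.023, and under quantile normalization 1 was higher. Wnt1 was at -0.23, -0.51 and -0.64 on the LM8 arrays and -2.74, -2.27 and -2.06 on the Dunn arrays, a difference of 1.90 ± 0.26 (SE, adjusted p = 0.00472), Wnt11 differed by 1.46 ± 0.21 (SE, adjusted p = 0.00609) and Wnt8b by 1.53 ± 0.43 (SE, adjusted p = 0.0448). Wnt4 was at 1.11, 0.87 and 1.11 on the LM8 arrays and 2.84, 2.39 and 3.06 on the Dunn arrays, a difference of -1.73 ± 0.25 (SE, adjusted p = 0.00561). Of 8 secreted antagonists, which bind Wnt proteins or their receptors outside the cell, 3 were higher (37.5%) and 1 lower (12.5%), with a median of 0.74 that was -0.18 under normexp. Frzb was at least 3-fold higher, Sfrp4 differed by 2.35 ± 0.47 (SE, adjusted p = 0.0163) and Wif1 by 2.48 ± 0.69 (SE, adjusted p = 0.0491) with 1 Dunn array left out. Among 15 receptors and their partners 1 was higher (6.67%) and 3 lower (20%), shares near those of all genes. Rspo3, a secreted protein that keeps Wnt receptors on the membrane, was detected on no LM8 array and was at least 49.5-fold lower, at -7.26, -6.40 and -7.99 on the LM8 arrays and -0.71, -1.23 and -0.17 on the Dunn arrays. Vangl1, of the planar polarity branch, differed by 3.03 ± 0.27 (SE, adjusted p = 0.000694). Dropping 1 array ended the call of Wnt8b (without LM8 replicates 1, 2 or 3 or Dunn replicates 1 or 2), Sfrp4 (without LM8 replicates 2 or 3) and Wif1 (without LM8 replicates 1, 2 or 3 or Dunn replicates 1 or 3). A call was missed under quantile normalization for Wnt11, Wnt8b and Wif1, under normexp for Wnt8b and Vangl1 and under the percentile over shared probes for Wif1. Under normexp the difference of Wnt11 and Frzb turned below 0, with no call.

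Of 22 Wnt transducers and target genes inside the cell, 2 were higher and 0 lower (9.09% and 0%, against 5.52% and 13.5% over all genes). Their median was 0.24 against -0.36 over all genes, and was 0.045 without Dunn replicate 1. Under the settings with scaled values it lay above the median of all genes by 0.24 to 0.62. Axin2, a feedback target widely read as a gauge of the pathway and above background on no Dunn array, differed by 0.58 ± 0.38 (SE, adjusted p = 0.278), and the transducer Ctnnb1 by 1.41 ± 1.14 (SE, adjusted p = 0.376), neither of which was called, and under normexp Axin2 was at -1.0. In the hedgehog pathway 3 of 14 genes were higher and 1 lower (21.4% and 7.14%, against 5.52% and 13.5% over all genes), with a median of 0.17. Under normexp 0 were higher and 1 lower, with a median of -0.23 against -0.44 over all genes. At late passage 1 was higher and 1 lower. Ihh, the ligand of growing bone, was at -3.15, -2.71 and -2.90 on the LM8 arrays and -4.63, -5.94 and -6.07 on the Dunn arrays, at least 3.1-fold higher. The target Gli1 and the receptor Ptch1 differed by 0.37 ± 0.29 (SE, adjusted p = 0.367) and -0.17 ± 0.31 (SE, adjusted p = 0.711), which were not called, and Smo, which passes on the signal, by -1.07 ± 0.25 (SE, adjusted p = 0.0258). Leaving out 1 array ended the call of Smo (without LM8 replicates 1, 2 or 3 or Dunn replicates 1 or 3). The call was also lost under the percentile over shared probes for Smo, under normexp for Smo and under quantile normalization for Smo. Under normexp the difference of Ihh turned below 0, with no call. Of 17 Wnt and hedgehog genes that the study itself singled out in LM8 9 were higher and 0 lower, with a median of 1.30, but that choice was made on these samples and is not independent evidence of its direction.

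Bone genes were divided, 4 higher and 4 lower of 22 (18.2% each, against 5.52% and 13.5% over all genes), although the lineage regulators above were not called. Phex, an enzyme of phosphate balance in bone, was at -1.94, -0.23 and -0.94 on the LM8 arrays and -5.53, -3.97 and -6.59 on the Dunn arrays, a difference of 4.33 ± 0.70 (SE, adjusted p = 0.00865). Msx2, a homeobox regulator of the skull, was at least 3.88-fold higher and Tnfrsf11b, the decoy receptor osteoprotegerin that restrains osteoclasts, at least 3.28-fold higher. Lower were genes of mineralised matrix and hormone response, among them Ibsp and Spp1, with differences of -1.26 ± 0.34 (SE, adjusted p = 0.0378) and -1.20 ± 0.33 (SE, adjusted p = 0.0465), and the parathyroid hormone receptor Pth1r, with -1.38 ± 0.24 (SE, adjusted p = 0.0109). These last 3 were chosen after their values were seen, and with the slide as a replicate block Spp1 was at -0.96 and not called (adjusted p = 0.0767). In fits on 5 arrays the call was lost for Phex (without LM8 replicate 3), Tnfrsf11b (without LM8 replicates 1, 2 or 3), Ibsp (without LM8 replicates 1, 2 or 3 or Dunn replicate 3), Spp1 (without LM8 replicates 1, 2 or 3 or Dunn replicates 1, 2 or 3) and Pth1r (without LM8 replicates 2 or 3). Other settings ended the call under normexp for Tnfrsf11b, under the percentile over shared probes for Ibsp, Spp1 and Pth1r and under quantile normalization for Ibsp and Spp1. Under normexp the difference of Msx2 turned below 0, with no call. In the BMP branch Bmp7 was detected on no LM8 array and was at least 39.6-fold lower, and Inhbb differed by -2.49 ± 0.42 (SE, adjusted p = 0.0095).

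**Figure D3:**
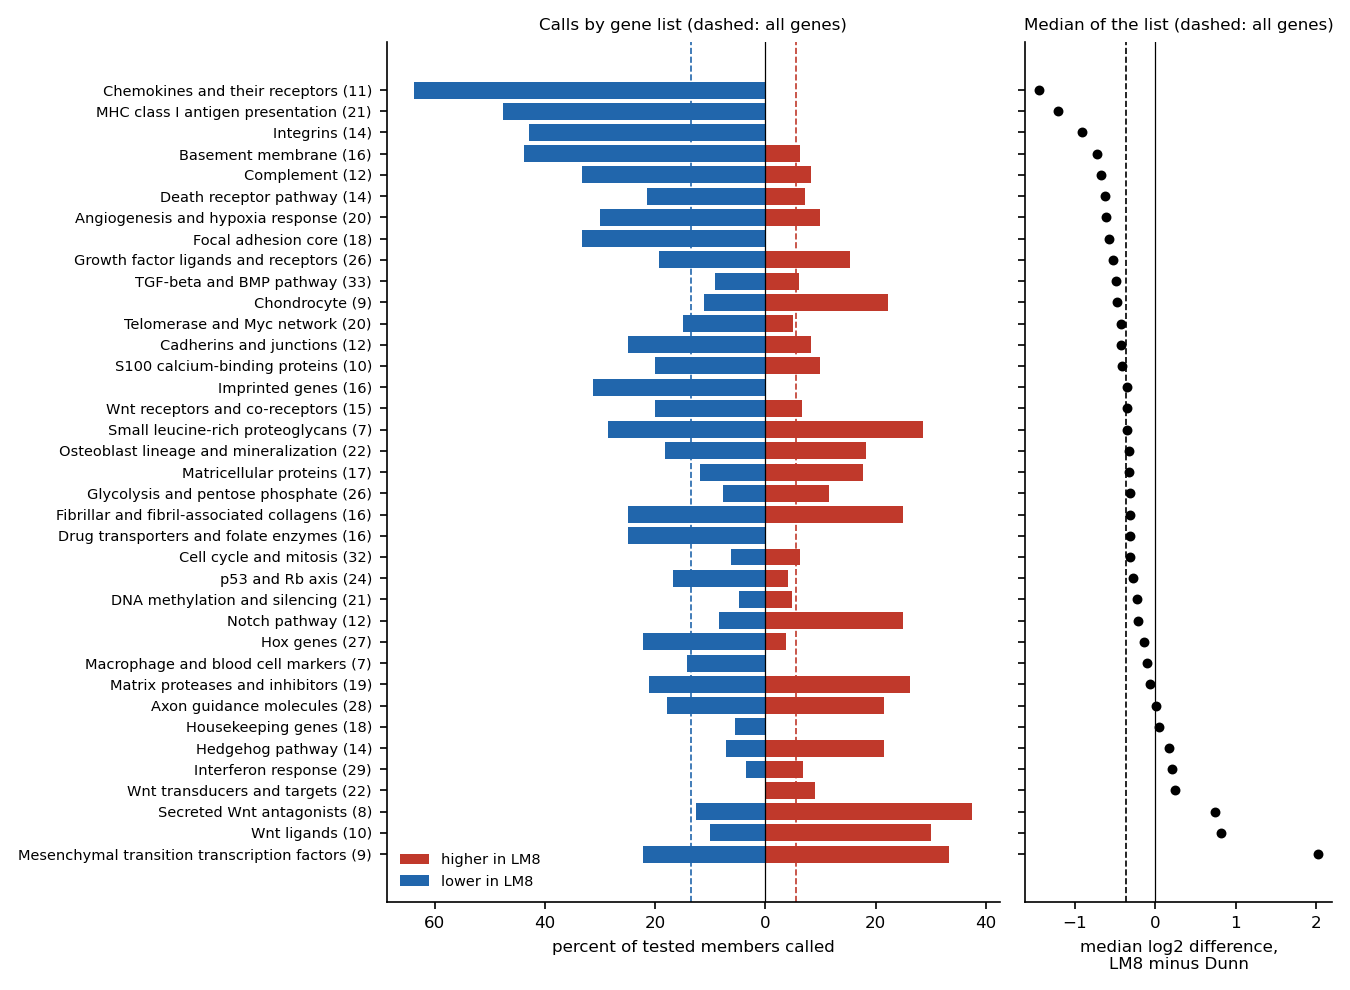
Gene groups with the number of tested members in brackets. The left panel gives the percent of tested members called lower (blue, to the left) and higher (red, to the right), with dashed lines at 13.5% and 5.52% for all genes, and the right panel the median difference of the group (log2, dashed line at -0.36 for all genes). Chemokines and MHC class I genes have lower calls and no higher ones and the lowest medians, -1.44 and -1.21, while proteases, bone genes and fibrillar collagens have calls in both directions.

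Small counts within these groups moved when 1 array was left out. Without LM8 replicate 3 the genes called higher numbered 0 among the transition factors, 2 among bone genes and 1 in the hedgehog pathway, and the lower bone genes 0. Without Dunn replicate 2 the lower bone genes numbered 4 and the lower fibrillar collagens 5, and the latter numbered 1 when any single LM8 array was left out.

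Growth factor genes were found in both directions, 4 higher and 5 lower of 26 (15.4% and 19.2%, against 5.52% and 13.5% over all genes). Among them the higher call of Fgfr3 lacks 2 of its 6 values as outlier spots. Egfr, the receptor of epidermal growth factor, was detected on no Dunn array and was at least 10.5-fold higher, at -0.99, -1.50 and -1.02 on the LM8 arrays and -4.84, -7.25 and -6.28 on the Dunn arrays. Axl, a receptor tyrosine kinase, and Gas6, its ligand, went apart, at 1.70 ± 0.44 (SE, adjusted p = 0.0342) and -3.55 ± 0.26 (SE, adjusted p = 0.000289). Of genes of vessel growth and low oxygen, 6 of 20 were lower (30%) and 2 higher (10%). Vegfc, a growth factor of lymphatic vessels, was at -4.76, -4.12 and -4.71 on the LM8 arrays and -1.12, -1.29 and -0.52 on the Dunn arrays, a difference of -3.56 ± 0.30 (SE, adjusted p = 0.00054), and Epas1, the oxygen-regulated factor HIF-2 alpha, differed by -1.93 ± 0.21 (SE, adjusted p = 0.0016). Vegfa, the main factor of blood vessels, differed by 0.02 ± 0.22 (SE, adjusted p = 0.953) and was not called. Tnfrsf10b, the receptor of the death ligand TRAIL, was at -7.95, -7.69 and -6.35 on the LM8 arrays and -0.91, -0.72 and -0.32 on the Dunn arrays, at least 50.3-fold lower. Its death receptor group held 3 lower and 1 higher of 14 (21.4% and 7.14%), shares near the 13.5% and 5.52% of all genes. Dropping 1 array ended the call of Axl (without LM8 replicates 1, 2 or 3).

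Proliferation genes were alike in their counts, 2 higher and 2 lower of 32 (6.25% each, against 5.52% and 13.5% over all genes), and Mki67, a marker of cycling cells, differed by -0.35 ± 0.82 (SE, adjusted p = 0.77). Ccnd2, a D-type cyclin, was at 2.40, 1.79 and 1.73 on the LM8 arrays and -1.09, -1.36 and -1.61 on the Dunn arrays, a difference of 3.33 ± 0.27 (SE, adjusted p = 0.000466). The p53 target Cdkn1a and Trp53 itself differed by -1.32 ± 0.25 (SE, adjusted p = 0.0147) and -1.16 ± 0.30 (SE, adjusted p = 0.0342). Mycn was at 1.74, 1.55 and 1.76 on the LM8 arrays and -1.38, -0.38 and -0.34 on the Dunn arrays and Myc at 2.73, 2.27 and 2.63 on the LM8 arrays and 3.98, 3.74 and 4.46 on the Dunn arrays, differences of 2.38 ± 0.32 (SE, adjusted p = 0.00434) and -1.52 ± 0.27 (SE, adjusted p = 0.0119), so that these relatives were ordered in opposite ways. In the group of drug transporters and folate enzymes 4 of 16 were lower (25% against 13.5% over all genes) and 0 higher, with a median of -0.31 close to that of all genes and 2 lower under normexp or the scaling to shared probes, led by the efflux pumps Abcc4, at -3.95 ± 0.27 (SE, adjusted p = 0.000216), and Abcg2, at -2.98 ± 0.25 (SE, adjusted p = 0.000547). Of 16 imprinted genes 5 were lower (31.25%) and 0 higher with a median of -0.35 (3 lower under the scaling to shared probes), led by Sgce and by Plagl1, at -3.59 ± 0.50 (SE, adjusted p = 0.00724) with 1 Dunn array left out. Of 28 axon guidance genes 6 were higher (21.4%) and 5 lower (17.9%), with Sema5a, at least 13.1-fold higher, opposite to Slit3. Leaving out 1 array ended the call of Cdkn1a (without LM8 replicates 1 or 3), Trp53 (without LM8 replicates 1, 2 or 3 or Dunn replicate 3) and Myc (without LM8 replicates 2 or 3). The call was also lost under the percentile over shared probes for Cdkn1a and Trp53 and under normexp for Trp53.

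Glycolysis genes gave 3 higher and 2 lower of 26 (11.5% and 7.69%, against 5.52% and 13.5% over all genes), and among them only Slc16a3 differed by over 4-fold. The reference genes Gapdh and Actb differed by -0.60 ± 0.27 (SE, adjusted p = 0.15) and 0.44 ± 0.47 (SE, adjusted p = 0.514), each with 1 array left out as an outlier spot, and of 18 housekeeping genes 0 were higher and 1 lower with a median of 0.04, which was -0.065 without Dunn replicate 1. Besides Pparg, the adipocyte marker Plin1 differed by -2.05 ± 0.28 (SE, adjusted p = 0.00434), while Adipoq and Fabp4, which mature adipocytes make, were above background on no array. The smooth muscle genes Acta2 and Cnn1 went in opposite directions, Acta2 at 4.89, 3.70 and 4.70 on the LM8 arrays and 7.55 and 7.70 on the Dunn arrays, with Dunn replicate 2 left out as an outlier spot and Cnn1 at -1.05, -1.61 and -0.72 on the LM8 arrays and -5.52, -7.03 and -5.15 on the Dunn arrays, and Cnn1 was at least 10.8-fold higher.

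Called genes were spread unevenly over the chromosomes. On chromosome 9, 26.8% of 680 tested genes were lower, on chromosome 15 23.5% of 494 and on chromosome 17 22.1% of 606, against 13.5% over all genes. On chromosome 18 2.69% of 297 genes were lower and 10.1% higher, and on chromosome 16 5.15% and 8.40% of 369. Taken within each slide and relative to the median of all genes, the median difference was -0.29 ± 0.006 (SD over 3 slides) on chromosome 9, -0.21 ± 0.040 on chromosome 15 and -0.23 ± 0.083 on chromosome 17. It was 0.48 ± 0.044 on chromosome 18 and 0.32 ± 0.027 on chromosome 16. At late passage the relative median was -0.20 on chromosome 9, 0.21 on chromosome 16 and -0.23 on chromosome 17, but 0.12 on chromosome 18, and on chromosome 19 it was -0.16 at early and 0.22 at late passage. Over the settings tried the relative median ran from -0.28 to -0.23 on chromosome 9 and from 0.37 to 0.55 on chromosome 18. Taking the median of all genes away removes any shift of a whole array, so the scaling could not move this measure as it moved the counts. In this measure 19.5% of genes on chromosome 18 and 63.2% on chromosome 9 lay below the median of all genes.

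**Figure D4:**
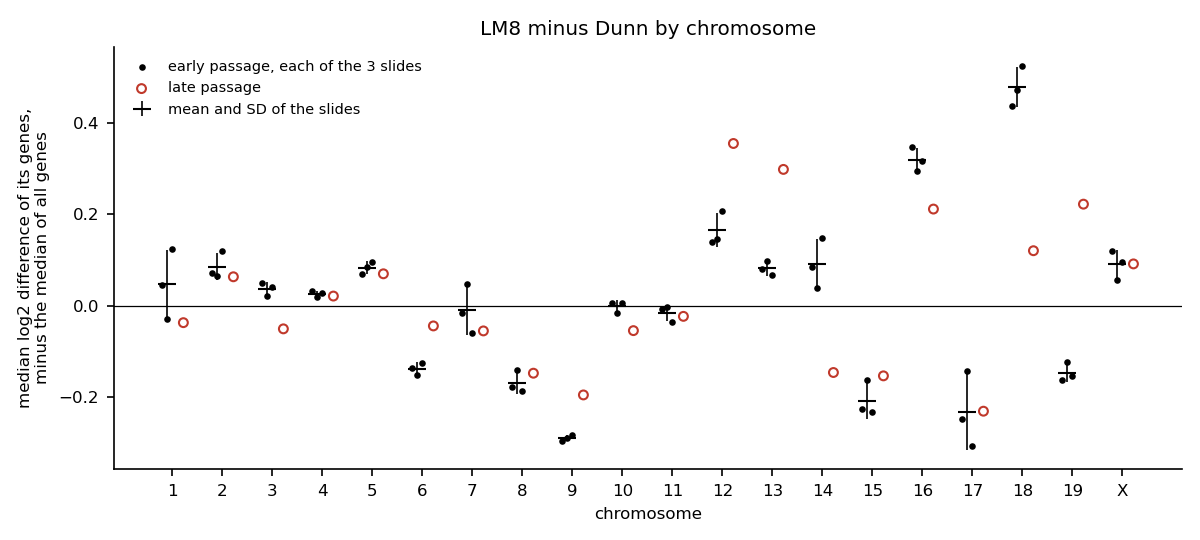
Median difference LM8 minus Dunn of the tested genes of each chromosome minus the median of all genes (log2). Black points are the slides at early passage, with their mean and SD, and open red circles the late passage. Chromosome 18 is highest at early passage, at 0.48, and chromosome 9 lowest, at -0.29.

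There were 13 runs of at least 4 neighbouring tested genes called in the same direction, all of them lower, of which 5 lay on chromosome 9, 4 on chromosome 17 and 2 on chromosome 15. Their number and direction depended on the scaling, since the scaling to shared probes left 3 runs, 2 lower and 1 higher, while quantile normalization gave 8 and normexp 21, all lower. The runs of Rhox genes and of H2-DMb1, Psmb9, Tap1 and Psmb8 were found under each of these settings. The longest held 6 genes on chromosome 9, Nradd, Nbeal2, Ccdc12, Pth1r, Myl3 and Tmie, with differences from -1.41 to -1.09. On chromosome 17 a run of 5 was formed by H2-DMb1, Psmb9, Tap1, Psmb8 and Tap2, from -2.79 to -1.34. On the X chromosome Rhox2c, Rhox2e, Rhox2h and Rhox5, homeobox genes of the reproductive tract and placenta, made a run of 4 with far larger differences, from -5.83 to -4.09. Rhox5 was at -4.19, -4.21 and -4.62 on the LM8 arrays and -0.14, -0.18 and -0.41 on the Dunn arrays, and Rhox2 genes are close copies of each other whose probes may share signal.

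The called genes were also described by their promoters. RefSeq windows of 300 bases were found for 9591 of the 11957 tested genes. The median number of CpG was 21 over all tested genes, 18 for genes called higher and 19 for genes called lower, and 12 and 11.5 for those over 16-fold higher and lower. Fewer than 5 CpG were found in 8.22% of windows of tested genes, 13.1% of genes called higher and 10.6% of genes called lower.

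Late cultures of the same lines gave a comparison that shares no array with the early one. Of the 660 genes higher at early passage, 594 (90.0%) had a difference of the same sign at late passage and 317 (48.0%) were called higher there, where 5.49% of all genes were. Of the 1615 lower genes, 1550 (96.0%) kept the sign and 687 (42.5%) were called lower, where 8.12% of all genes were. The share of genes with the same sign was not counted over all genes. The median of all genes was -0.36 at early and -0.22 at late passage, so a sign below 0 was the more common one. The opposite call was made for 10 and 7 genes. Across 11956 genes, which are not independent replicates, early and late differences correlated at Pearson's r = 0.772 and Spearman's rho = 0.729. Called again in the same direction were 1004 genes in all, and 651 without LM8 late replicate 2.

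The change of the line difference with passage was tested by its interaction, which passed an adjusted p below 0.05 for 62 of the higher and 109 of the lower genes (2% of all genes passed). The difference had shrunk, or turned, for 42 and 74 of them and grown for 20 and 35. The genes were chosen for a large early difference, and the interaction uses the same early arrays. That choice favours both a pass and a smaller late difference, so these counts do not show that the lines converged. These 171 genes became 109 without LM8 late replicate 1, 102 without LM8 late replicate 2 and 99 with normexp. Of the 171, 42 were above background on no array of at least 1 of the 4 groups of line and passage, so that a late or early difference rests there on undetected signal. Rhox2h went from an early difference of -5.83 to 0.95 at late passage (interaction adjusted p = 1.59e-06), and Ccnd2 from 3.33 to -0.45 (adjusted p = 0.000193, limma). Catsperz, a gene of the sperm tail, went from 1.72 to 9.80 (adjusted p = 4.76e-07), being above background on no late Dunn array, and Lox from 1.74 to 5.09 (adjusted p = 0.00623), being above background on 1 late Dunn array. The late differences of Pparg and Slc16a3 were -5.99 and 5.94, with interaction p-values above the threshold, which does not show that they were equal to the early ones. Pkdcc and Slit3 were above background on all Dunn and on no LM8 array at late passage, as at early passage.

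**Figure D5:**
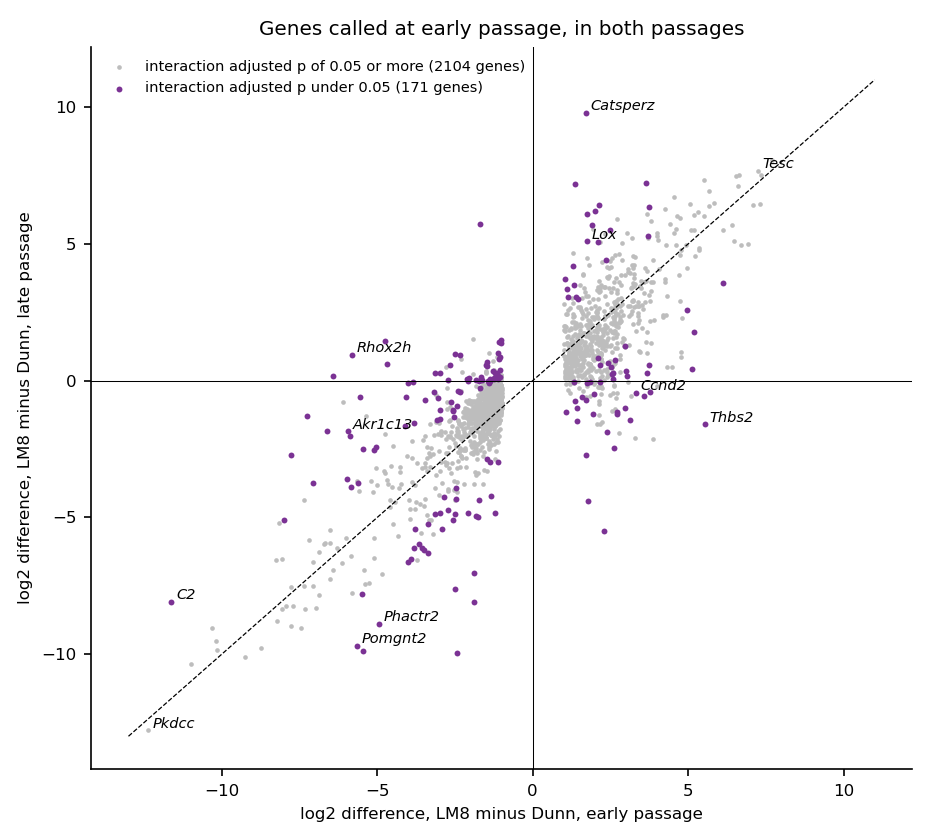
Genes called at early passage, with the difference LM8 minus Dunn at early passage on the horizontal axis and at late passage on the vertical axis (both log2), and the dashed line where they are equal. The 171 purple genes passed the interaction at an adjusted p below 0.05 and the 2104 grey genes did not. Most genes lie in the quadrants of the same sign, while Rhox2h and Ccnd2 lie across 0 at late passage.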

How the data were processed

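RNA of 12 cultures was hybridised by the authors to 1-colour Agilent mouse arrays read with Agilent Feature Extraction 10.7.3, per the labels. The authors deposited scanner files, from which the processed intensity (background-subtracted) and its detection flag were used, and a table that holds the same processed intensities, rounded and without scaling between arrays, which served as an alternative. The labels and the methods name different reagents for RNA extraction. No normalization is named in the sources used here.

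Control spots and outlier spots were left out and spots of a probe averaged, which gave 39429 probes. log2 intensities were computed from the deposited values minus the 75th percentile of the array. Probes that the scanner flagged as well above background in every array of LM8, of Dunn or of both were fitted in limma 3.58.1 (R 4.3.3; lmFit and eBayes, 6 arrays, no block), with p-values adjusted over the 20244 probes. The fit was tested on simulated data. For normexp the median spot signal was used in place of the mean signal. Gene names are those of RefSeq GRCm38.p6, matched through probe accessions, for 26581 probes (67.4%). The number of arrays limits the precision, and a bound needs a probe on 3 of 3 arrays of one line and 0 of 3 of the other.

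Replicate numbers stand for slides, and the deviations of LM8 and Dunn arrays of the same slide from their group means correlated at 0.356, 0.311 and 0.332 over 13208 probes, so the numbers pair the samples, and a second fit took the slide as its block. The 43 gene lists and the 6 arrays were chosen with earlier results of these data known. Genes named are the 10 largest differences each way among genes on all 6 arrays with the same sign on each slide, the 8 largest bounds each way, up to 4 called members of each list, the Wnt and hedgehog genes that the study named, and reference genes, and others are given as uncalled members for comparison. Predicted genes were counted and not named, and a few list members are not reported here. Scaling, background correction, filters, probe choice, test, block and single arrays were varied. Late arrays were fitted the same way, and the interaction over all 12.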

Additional observations from a re-analysis of the deposited data

Results flagged for a closer look

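The difference between LM8 and Dunn changed between early and late passage, by the interaction of line and passage in limma, for 20 genes whose values are given above. In each sentence that follows the early difference comes before the late one, both as log2 of LM8 minus Dunn, and the adjusted p is that of the interaction over all tested probes. The early difference rests on 3 arrays a line, as does the late one, and no explanation was tested. The genes were called on these same early arrays, which favours a smaller difference at late passage.

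For 3 genes the sign had turned at late passage. Rhox2h went from -5.83 to 0.95 (adjusted p = 1.59e-06) and Ccnd2 from 3.33 to -0.45 (adjusted p = 0.000193). For Thbs2 the fitted difference went from 5.54 to -1.59 (adjusted p = 0.0367), but Thbs2 was above background on no late array of either line and on no early Dunn array, so its late sign cannot be read.

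Smaller differences of the same sign at late passage were found for Rhox5, from -4.09 to -1.66 (adjusted p = 0.000637), Akr1c13, from -5.95 to -1.85 (adjusted p = 0.00258), Myh14, from -5.46 to -2.52 (adjusted p = 0.00158), C2, from -11.62 to -8.10 (adjusted p = 0.000365), and Bmp7, from -5.97 to -3.60 (adjusted p = 0.0119). The fitted values of C2, at both passages, and of Bmp7, at early passage, rest on LM8 signals below detection.

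The difference grew for the remaining genes. Pomgnt2 went from -5.65 to -9.69 (adjusted p = 0.000591), Agpat3 from -5.48 to -7.79 (adjusted p = 0.00329) and Phactr2 from -4.95 to -8.89 (adjusted p = 0.00329). Among matrix and adhesion genes, Fmod went from -1.72 to -4.36 (adjusted p = 0.000637), Podnl1 from -2.85 to -4.25 (adjusted p = 0.0235), Itga11 from -1.32 to -4.22 (adjusted p = 0.00207) and Mmp13 from -3.93 to -6.51 (adjusted p = 0.00834). Lox rose in its difference from 1.74 to 5.09 (adjusted p = 0.00623) and Catsperz from 1.72 to 9.80 (adjusted p = 4.76e-07). Vegfc went from -3.56 to -6.13 (adjusted p = 0.0421), Inhbb from -2.49 to -4.86 (adjusted p = 0.0388) and the efflux pump Abcg2 from -2.98 to -4.83 (adjusted p = 0.0158). The late values of Pomgnt2, Phactr2 and Vegfc rest on LM8 signals below detection on all 3 arrays and that of Catsperz on such Dunn signals, so that their late fitted differences are no measured levels. Mmp13 was above background on 2 of the late LM8 arrays and Lox on 1 of the late Dunn arrays.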

How the results depend on the processing

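Counts are given as genes higher and then lower in LM8, against 660 and 1615. They stayed within 1.5 times of these under quantile normalization, the median of tested probes, a floor on dim signals, other choices of probe, a variance trend, unadjusted p-values, 1 fit over 12 arrays, array quality weights and the filter and fit without Dunn replicate 1, the last a pair of settings chosen after seeing the data. Scaling to the percentile over shared probes gave 971 and 562, and normexp 450 and 2191. The deposited table without scaling gave 5421 and 192, where the median of all genes moved to 1.11, no filter on dim probes gave 264 and 671, and probes detected on all 6 arrays gave 278 and 1557. An ordinary t-test with pooled variance, in place of the limma fit, gave 290 and 981 with adjustment. At the study's threshold of an unadjusted p below 0.05 and over 2-fold, this t-test gave 664 and 1676. Leaving out 1 early array gave 275 to 1051 genes higher and 539 to 2110 lower. Of the called genes 1004 were called again at late passage, with 651 to 1069 when 1 late array was left out, and 171 passed the interaction, with 102 to 210 when 1 of the 12 arrays was left out and 99 under normexp.

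With the shared slide as a replicate block the paired fit gave 922 genes higher and 1724 lower, of which 644 and 1586 were among the main calls, 977 called again at late passage and 200 with an interaction. Beside H2-K1, Cxcl10 and Spp1, given above, the block changed no call of the 138 genes given with values.

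For the 138 genes, signs turned as follows. In the deposited table without scaling B2m was at 1.00, C3 at 0.98, Cd44 at 0.25, Cdkn1a at 0.16, Ezr at 0.25, Gapdh at 1.16, H2-D1 at 0.35, H2-K1 at 0.088, Ibsp at 0.22 and Ifih1 at 0.17. In the same table Itga11 was at 0.16, Mki67 at 1.14, Ptch1 at 1.32, Pth1r at 0.10, Smo at 0.42, Sp7 at 1.04, Spp1 at 0.046, Tln1 at 0.13 and Trp53 at 0.33. Under normexp Axin2 was at -1.0, Cxcl10 at -1.01, Frzb at -0.13, Ihh at -0.23, Msx2 at -0.043, Oas2 at -0.036 and Wnt11 at -0.28. With the percentile over shared probes Mki67 was at 0.11, Ptch1 at 0.29 and Sp7 at 0.018, with quantile normalization Gapdh was at 0.057, and with array weights Mki67 was at 0.091. A floor on dim signals put Axin2 at -0.042 and Cxcl10 at -0.59, and the mean of probes Mki67 at 0.37, S100a4 at -0.082 and Vegfa at -0.48. In the filter and fit without Dunn replicate 1, Col1a1 was at -0.076, Ctnnb1 at -0.057, S100a4 at -0.031, Vegfa at -0.089 and Xist at -0.13. Over the fits without 1 array Col1a1 ran from -0.076 to 0.10, Ctnnb1 ran from -0.057 to 2.40, Mki67 ran from -0.89 to 0.47, Ptch1 ran from -0.46 to 0.06, Runx2 ran from -0.14 to 0.34, S100a4 ran from -0.031 to 0.25, Vegfa ran from -0.089 to 0.079 and Xist ran from -0.13 to 0.85. The cause of these changes was not tested. The depth of an array is its signal over background, and the 6779 probes complete only in LM8 against 257 only in Dunn limit what can be said of genes dim in Dunn.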

Other observations

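Some gene groups were not described above. Of 27 tested Hox genes, which set position along the body axis, 6 were lower in LM8 (22.2% against 13.5% over all genes) and 1 higher, with 2 lower and 2 higher under the scaling to shared probes. Hoxc8 was at -2.74, -3.37 and -3.20 on the LM8 arrays and -0.91, -1.40 and -0.98 on the Dunn arrays, a difference of -2.01 ± 0.27 (SE, adjusted p = 0.00397), and Hoxc11 differed by -1.84 ± 0.27 (SE, adjusted p = 0.00638). In the Notch pathway 3 of 12 genes were higher and 1 lower (25% and 8.33%, against 5.52% and 13.5% over all genes). Under normexp 2 were higher and 5 lower, with a median of -0.84 against -0.44 over all genes. Notch2, among the higher ones, rests on a single Dunn array with the other 2 left out as outlier spots. The ligand Jag1 was at -1.11, -1.03 and -1.25 on the LM8 arrays and -3.35, -3.02 and -3.25 on the Dunn arrays, a difference of 2.08 ± 0.21 (SE, adjusted p = 0.0013). The target Hey1 differed by 1.56 ± 0.26 (SE, adjusted p = 0.00893). Of 10 tested genes for S100 calcium-binding proteins, S100b was higher and 2 were lower (10% and 20%, against 5.52% and 13.5% over all genes), while S100a4, a member long linked to metastasis, differed by 0.09 ± 0.24 (SE, adjusted p = 0.801) and was not called. Xist, the RNA of the silent X chromosome, was above background on all 6 arrays and differed by 0.42 ± 0.59 (SE, adjusted p = 0.61). Other settings ended the call under normexp for Jag1.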
